A study of Homo sapiens with 21 samples.

Results

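The transcripts described are those of 9 genes that carry or accompany cell-cell adhesion: the classical cadherins CDH1, CDH2, CDH3 and CDH11, the catenins CTNNA1, CTNNB1 and CTNND1, the intermediate filament gene VIM and the adhesion molecule gene EPCAM. They were picked by symbol, and all 9 were among the 20970 genes listed in at least 1 of the 4 expression tables of the series. All 9 had values in the 3 tables from FADU cells, and 6 had values in the table from BFTC909 cells. CDH1, CDH3 and CDH11 were not listed in the table from BFTC909 cells, so no values of theirs were available in that line. Every gene listed there had at least 9 reads in its second highest library.

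Classical cadherins are membrane proteins that bind the same kind of cadherin on the neighbouring cell across the adherens junction. Inside the cell p120 catenin (CTNND1) holds the cadherin at the membrane, and beta-catenin (CTNNB1) joins its tail to alpha-catenin (CTNNA1), which grips the actin cytoskeleton. In epithelial-mesenchymal transition, carcinoma cells are known to exchange E-cadherin for N-cadherin and to gain vimentin, which is called the cadherin switch.

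All samples were bulk RNA-seq libraries of human cancer cell lines. FADU is a head and neck squamous carcinoma line and BFTC909 is an upper tract urothelial carcinoma line. In each line, cells carrying a scrambled control vector (Scr-si) under normoxia or hypoxia and cells carrying a METTL4 knockdown vector (METTL4-si) under hypoxia gave 2 libraries a group, with oxygen at 1% for hypoxia or 18% for normoxia for 18 hours. METTL4 is an adenine methyltransferase. FADU cells stably transfected with a control vector, with METTL4 or with the long noncoding RNA RP11-390F4.3 were cultured in normoxia and gave 2 libraries a group. In a separate set, hypoxic FADU cells were sequenced as 1 CRISPR control library and as 2 clones with an edited METTL4 catalytic motif, each clone grown from a single cell. The stable lines were selected with a drug after transduction or transfection, and the labels do not tell whether replicates came from separate selections, so p-values measure only the spread between these libraries, which may be technical. The 2 RP11-390F4.3 columns were named by a code and were tied to that group because no other group was left for them.

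Depth ranged from 17.8 to 25.4 M reads on genes per library. The checks of the labels gave a mixed picture. In FADU cells METTL4 stood at 26.6 and 25.3 in the hypoxic control and at 24.2 and 27.1 CPM (the reads of the gene scaled to the reads on all genes, with libraries aligned by trimmed means, TMM) in the libraries labelled METTL4-si, so the knockdown was not visible in its own transcript (log2 fold change -0.02, SE 0.09, limma adjusted p = 0.900). In BFTC909 cells METTL4 was at 19.0 and 15.6 CPM in the hypoxic control and at 14.4 and 12.2 CPM in METTL4-si, and this difference did not pass the test (limma adjusted p = 0.0717). METTL4 was at 35.4 and 32.7 CPM with the control vector and at 158 and 139 CPM with the METTL4 vector. RP11-390F4.3 was at 12.9 and 13.4 CPM with the control vector and at 23.9 and 25.1 CPM with its own vector, and it was also at 21.8 and 21.7 CPM with the METTL4 vector. CA9, which encodes a carbonic anhydrase switched on by low oxygen, rose from 2.33 and 2.55 CPM in normoxic to 31.0 and 37.8 CPM in hypoxic FADU cells. With METTL4-si under hypoxia it was at 1.87 and 2.22 CPM, which lies below both normoxic libraries. In BFTC909 cells the mean of CA9 was 0.766 CPM in normoxia, 55.1 CPM in the hypoxic control and 5.69 CPM with METTL4-si under hypoxia.

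Some libraries stood apart. Of 10 luminal breast markers, 8 were listed in the FADU knockdown table. Their summed level was 143 CPM in normoxia replicate 1 and 732 CPM in METTL4-si replicate 1, against 6.97 to 12.5 CPM in the other 4. One defining marker, TFF1, was at 26.2 and 135 CPM in those 2 libraries and at 0 in the other 4. In BFTC909 METTL4-si replicate 2, GATA3 was at 128 CPM and GREB1 at 121 CPM, against 0.573 to 0.964 CPM and 1.52 to 10.6 CPM in the other 5 libraries. The third marker of that set listed there, CA12, was at 285 CPM in that library, at 303 to 333 CPM in METTL4-si replicate 1 and normoxia and at 996 and 1017 CPM in the hypoxic control, so the sum of the 3 was 533 CPM in METTL4-si replicate 2 against 999 and 1020.3 CPM in the hypoxic control and 314 to 335 CPM in the remaining 3. In RP11-390F4.3 overexpression replicate 2, 5 listed markers of the same set summed to 56.8 CPM against 6.56 to 9.78 CPM in the other 5 libraries of that table. All 7 squamous markers were listed in every FADU library, with sums of 1643 to 3817 CPM. In BFTC909 cells 2 of 8 urothelial markers were listed, with sums of 11.1 to 28.5 CPM, and 8 of 10 fibroblast markers, with sums of 1270 to 4956 CPM, so most markers of the labelled tissue were not seen.

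Per kilobase of exon, the 2 lines held different sets of these transcripts. In the FADU knockdown libraries EPCAM had a median level of 77.5 CPM per kilobase, CDH1 59.2, CDH3 48.8, CTNND1 35.2, CTNNA1 34.5 and CTNNB1 33.9. CDH2, CDH11 and VIM followed with medians of 1.58, 0.281 and 0.159 CPM per kilobase. These medians pool the 3 conditions, and the order of the first 3 changed with them: in the hypoxic Scr-si libraries EPCAM was at 50.4 and 50.6, CDH1 at 60.04 and 65.3 and CDH3 at 55.7 and 57.8 CPM per kilobase. The ranges over libraries of the 3 catenins overlapped, so no order holds among them. In BFTC909 cells VIM led with a median of 738 CPM per kilobase, CDH2 had 12.8, and EPCAM had 0.608 CPM per kilobase. The tables were normalized separately, so no test was made between the lines.

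The first comparison asked how the cadherin switch genes respond when METTL4 is raised in normoxic FADU cells. CDH1 (chr 16:68771195-68869440, plus strand, GRCh37, like all gene positions given here), which encodes E-cadherin, was at 237 and 243 CPM with the control vector and at 143 and 137 CPM with METTL4. The 2 groups were far apart, and CDH1 fell by 0.77 on the log2 scale (SE 0.05, limma adjusted p = 1.6e-08). CDH2 (chr 18:25512843-25757910, minus strand), which encodes N-cadherin, was at 14.6 and 14.1 CPM with the control vector and at 21.4 and 20.2 CPM with METTL4. It rose by 0.50 (SE 0.09, limma adjusted p = 0.00082), from a level per kilobase far under that of CDH1.

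CDH11 (chr 16:64977656-65160015, minus strand), the gene of the mesenchymal OB-cadherin, was at 3.91 and 2.93 CPM with the control vector and at 9.64 and 8.11 CPM with METTL4. Its rise was 1.16 (SE 0.15, limma adjusted p = 4.2e-05), a ratio of means of 2.59. VIM (chr 10:17270240-17279592, plus strand), which encodes vimentin, was at 0.334 and 0.279 CPM with the control vector and at 2.39 and 2.45 CPM with METTL4. The rise was 1.39 on the log2(value + 1) scale (SE 0.16, limma adjusted p = 1.6e-05), and the ratio of means was 7.88. That scale understates the change of so low a gene: edgeR on whole reads gave 2.94 and a pseudocount of 0.1 gave 2.63, while a pseudocount of 5 gave 0.48. The counts behind VIM were 7 and 6 reads in the controls and 48 and 54 reads with METTL4, so even after the rise the transcript was scarce in these bulk libraries, where a few cells with much VIM RNA and many cells with little cannot be told apart.

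In all, 3 members rose and 1 fell with METTL4 at 1.3-fold or more and an adjusted p under 0.05, out of 9 tested. Of all 15644 genes tested, 8% rose and 10.5% fell by the same rule. CDH3 (chr 16:68670092-68761371, plus strand), which encodes P-cadherin and lies next to CDH1, was at 209 and 221 CPM with the control vector and at 178 and 174 CPM with METTL4, a difference of -0.28 (SE 0.05, limma adjusted p = 0.00031) that stayed under 1.3-fold. EPCAM (chr 2:47572297-47614740, plus strand), an epithelial adhesion molecule outside the cadherin family, was at 183 and 170 CPM and at 141 and 144 CPM, a difference of -0.30 (SE 0.05) that also stayed under 1.3-fold. Neither pair of groups overlapped, and the share of all genes without overlap was not counted. The catenins moved little: the difference was 0.00 for CTNNA1 (95% interval -0.10 to 0.09), 0.04 for CTNNB1 (-0.07 to 0.14) and -0.14 for CTNND1 (-0.23 to -0.05).

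**Figure D1:**
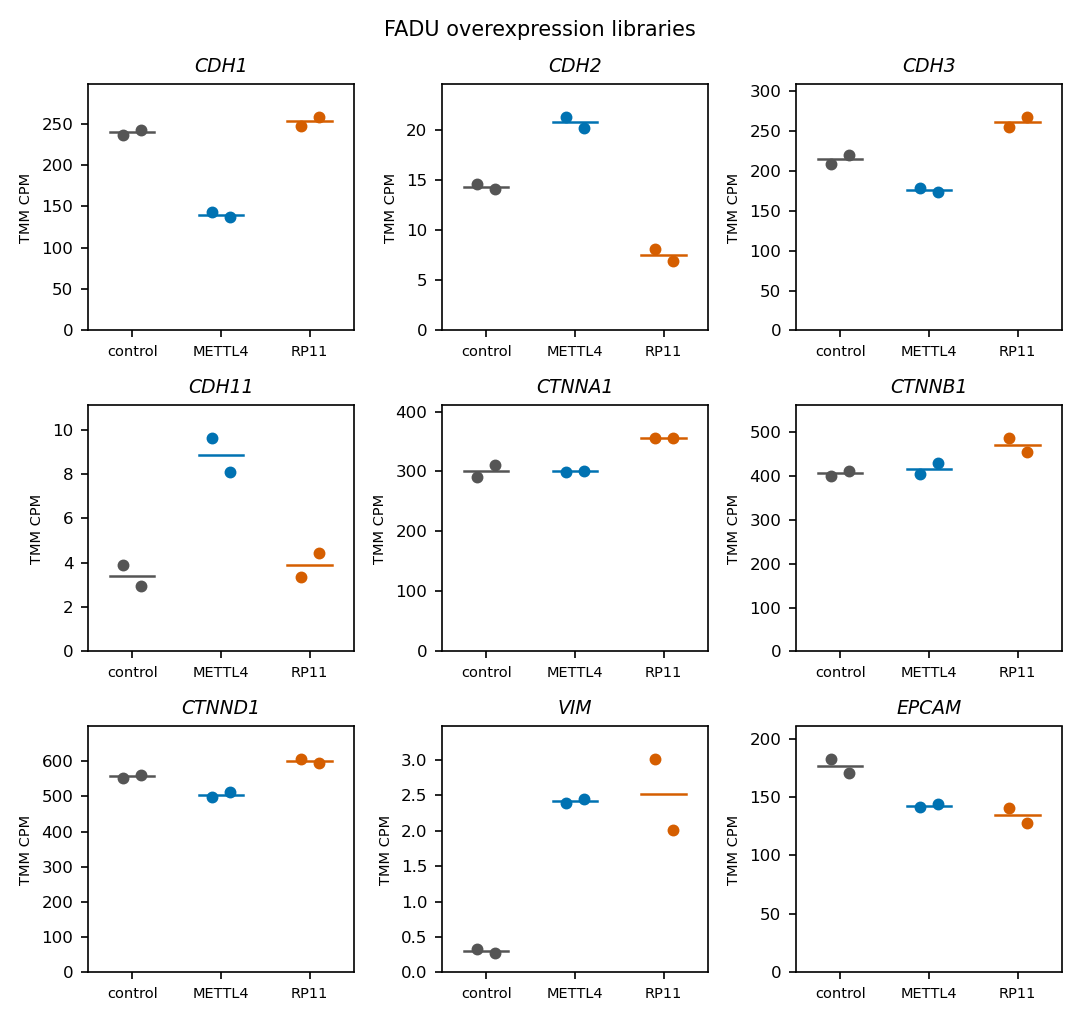
Each panel plots 1 gene in the 6 FADU overexpression libraries, in TMM-normalized CPM on a linear axis that starts at 0, with a point per library and a bar at the mean of 2 (RP11 stands for RP11-390F4.3). CDH1 is low with METTL4 alone, CDH2 is high with METTL4 and low with RP11-390F4.3, and VIM is near 0.3 CPM with the control vector and at 2.01 to 3.02 CPM with either of the other vectors.

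With RP11-390F4.3 in place of METTL4, the same 2 cadherins went another way. CDH1 was at 247 and 259 CPM, slightly above the controls, with a difference of 0.08 (95% interval -0.02 to 0.18, limma adjusted p = 0.165) that was -0.00 once libraries were centred on their median. CDH2 was at 8.13 and 6.98 CPM, under both controls, and fell by 0.85 (SE 0.09, limma adjusted p = 6.3e-06). CDH11 was at 3.34 and 4.45 CPM and overlapped the controls, with a difference of 0.15 (95% interval -0.18 to 0.48). VIM was at 3.02 and 2.01 CPM and rose by 1.41 (SE 0.16, limma adjusted p = 8.8e-06), or by 3.01 with edgeR on whole reads. Its change was in the same direction as with METTL4, although the 2 comparisons share their control libraries. Without RP11-390F4.3 replicate 2, the library higher in luminal breast markers, the CDH2 difference was -0.75 and that of VIM was 1.62, and both calls held.

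EPCAM fell by 0.39 with RP11-390F4.3 (SE 0.05, limma adjusted p = 4.2e-05), from 183 and 170 CPM to 141 and 128 CPM. The fold lay just past the threshold: without RP11-390F4.3 replicate 2 the difference was -0.32 and without control replicate 1 it was -0.34, both under 1.3-fold. The other members did not reach 1.3-fold: CDH3 was at 255 and 268 CPM (0.29), CTNNA1 (chr 5:137946656-138270723, plus strand) at 356 and 357 CPM (0.24), CTNNB1 (chr 3:41236232-41301587, plus strand) at 487 and 455 CPM (0.21) and CTNND1 (chr 11:57520715-57587018, plus strand) at 607 and 594 CPM (0.11). All 4 lay above both controls in both libraries, and the share of all genes that did so was not counted. Thus 1 member rose and 2 fell, against 16.5% and 12.5% of all genes tested. Centring each library on its median moved the share of higher genes among all calls from 56.9% to 41.2%, and the member calls stayed 3.

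The direct comparison of the 2 overexpressing lines tests the contrast itself. CDH1 was 0.85 higher with RP11-390F4.3 than with METTL4 (SE 0.05, limma adjusted p = 4.9e-09), and CDH3 was 0.57 higher (SE 0.05, limma adjusted p = 2.9e-07). CDH2 was lower with RP11-390F4.3 by a log2 difference of -1.35 (SE 0.09, limma adjusted p = 6.3e-08), and CDH11 by -1.02 (SE 0.15, limma adjusted p = 7.6e-05). Without RP11-390F4.3 replicate 2 the differences were 0.82, 0.53, -1.25 and -1.18 in the same order, and the 4 calls held. All 4 cadherins therefore differed between the lines, 2 in each direction, against 18.4% of all genes higher and 13.3% lower with RP11-390F4.3 (58.1% of all calls higher, and 43.2% after median-centring). VIM did not separate the lines, with a difference of 0.03 (95% interval -0.32 to 0.38) that was -0.06 after median-centring, nor did EPCAM, with a difference of -0.09 (-0.21 to 0.03). The 3 catenins were higher with RP11-390F4.3 by 0.18 to 0.25, under 1.3-fold. Of the 7 squamous markers, 5 were also higher with RP11-390F4.3 than with METTL4 and none lower (median 0.45). Against the control 1 rose and 3 fell with METTL4, and 3 rose and 2 fell with RP11-390F4.3. Their sums were 2976 and 2791 CPM with RP11-390F4.3 and 2940 and 2845 CPM with METTL4, against 3715 and 3600 CPM with the control. The part of these markers in the cadherin levels was not tested.

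The start regions of VIM and CDH2 are shown because the 2 transcripts rose together with METTL4 and moved apart with RP11-390F4.3. Promoter entries from RefSeq (GRCh38.p14) matched 4 of the 9 members, CDH2, CTNNA1, CTNNB1 and VIM. Each sequence holds the 250 bases before the transcription start, 5′ to 3′ on the strand of the gene, and capitals mark a match to CACCTG (the E-box read by SNAI and ZEB repressors) or to ACGTG or GCGTG (cores of the hypoxia response element), searched on both strands.
VIM, chr10:17227991-17228240, plus strand: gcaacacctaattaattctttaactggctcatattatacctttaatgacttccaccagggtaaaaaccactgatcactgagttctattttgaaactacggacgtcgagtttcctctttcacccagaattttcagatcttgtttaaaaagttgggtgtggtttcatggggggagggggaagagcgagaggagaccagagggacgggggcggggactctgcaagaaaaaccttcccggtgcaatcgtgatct
CDH2, chr18:28177131-28177380, minus strand: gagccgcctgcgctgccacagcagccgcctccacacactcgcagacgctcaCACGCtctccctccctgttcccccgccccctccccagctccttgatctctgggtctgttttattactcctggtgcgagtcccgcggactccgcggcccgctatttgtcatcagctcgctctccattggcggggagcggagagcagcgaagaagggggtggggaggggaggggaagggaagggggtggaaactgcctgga
The VIM window held no match, and the CDH2 window held 1 match, to GCGTG read on the opposite strand. A second CDH2 entry further into the gene held none. Of 35116 promoter windows of this length, 17.5% held CACCTG, 18.5% held ACGTG and 32.2% held GCGTG. The absence of these letters from a window says nothing about a factor's binding elsewhere.

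Reads of VIM overlap an antisense gene, and the strand setting of the counting is not given in the sources used here. VIM-AS1 had 5 and 5 reads with the control vector, 12 and 22 with METTL4 and 37 and 25 with RP11-390F4.3. Both transcripts were higher with either vector, and if strand was ignored their reads cannot be told apart.

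The next comparison asked what low oxygen does to these genes in FADU cells. CDH1 was at 253 and 212 CPM in normoxia and at 365 and 397 CPM in hypoxia. It rose by 0.71 (SE 0.20, limma adjusted p = 0.043). E-cadherin transcripts were thus higher in hypoxia, opposite to the direction of a cadherin switch. The call did not hold when any 1 of the 4 compared libraries was left out, with differences from 0.59 to 0.84, nor in a fit with no trend (limma adjusted p = 0.069). It held in a fit of the 2 compared groups alone, without the METTL4-si libraries (limma adjusted p = 5.6e-05), and with edgeR on whole reads (adjusted p = 0.036). Without normoxia replicate 1, high in luminal breast markers, the difference was 0.84.

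CDH3 was at 221 and 214 CPM in normoxia and at 356 and 369 CPM in hypoxia, and rose by 0.74 (SE 0.08, limma adjusted p = 0.0017). EPCAM was at 179 and 197 CPM in normoxia and at 122 and 123 CPM in hypoxia, and fell by 0.61 (SE 0.07, limma adjusted p = 0.0021). CDH11 was at 5.32 and 6.03 CPM and then at 3.73 and 2.05 CPM, and fell by 0.81 (SE 0.21, limma adjusted p = 0.036). That call was lost with edgeR (adjusted p = 0.055), with median-centred libraries (adjusted p = 0.052) and without any of 3 libraries, normoxia replicate 1, normoxia replicate 2 or hypoxia replicate 2, the last with a difference of -0.49. Without normoxia replicate 1 the differences were 0.76 for CDH3 and -0.68 for EPCAM, and both calls held. Of the 7 squamous markers 4 also rose with hypoxia and 1 fell (median 0.55). Their sums were 3398 and 3717 CPM in hypoxia against 3817 and 3597 CPM in normoxia. The part of these markers in the CDH1 and CDH3 levels was not tested. So 2 members rose and 2 fell out of 8 tested, beside 9.73% and 9.65% of the 16324 genes tested. Of all calls 50.2% were higher, and 59.0% after median-centring.

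The N-cadherin transcript did not rise in hypoxic FADU cells. CDH2 was at 14.5 and 17.0 CPM in normoxia and at 13.9 and 12.7 CPM in hypoxia, a difference of -0.23 (95% interval -0.50 to 0.05). VIM was at 0.332 and 0.759 CPM in normoxia and at 1.17 and 0.958 CPM in hypoxia. These levels were under the filter on low values, and a fit with no filter gave 0.43 (SE 0.22, limma adjusted p = 0.223). Differences were 0.24 for CTNNA1 (95% interval 0.01 to 0.47), -0.02 for CTNNB1 (-0.21 to 0.17) and 0.15 for CTNND1 (-0.06 to 0.36).

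The libraries labelled METTL4-si were then compared with the hypoxic Scr-si libraries, which the comparison above also used. All 3 catenins fell. CTNNA1 was at 354 and 366 CPM in the control and at 253 and 209.9 CPM with METTL4-si, and fell by 0.64 (SE 0.10, limma adjusted p = 0.0036). CTNNB1 was at 402 and 425 CPM and then at 285 and 302 CPM, and fell by 0.49 (SE 0.08, limma adjusted p = 0.0048). CTNND1 was at 584 and 604 CPM and then at 426 and 489 CPM, and fell by 0.38 (SE 0.09, limma adjusted p = 0.016), just past 1.3-fold. Without METTL4-si replicate 1 the differences were -0.77 for CTNNA1 and -0.45 for CTNNB1, and both calls held. The CTNND1 call was lost without that library (-0.28, under 1.3-fold) and without hypoxic control replicate 1 or 2 (adjusted p of 0.095 and 0.126), and the CTNNB1 call was lost without control replicate 2 (-0.45, limma adjusted p = 0.061). The 7 squamous markers were also lower with METTL4-si, with sums of 2193 and 2499 CPM against 3398 and 3717 CPM and 4 of 7 called lower, and their part in the catenin levels was not tested.

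EPCAM went the opposite way, from 122 and 123 CPM in the control to 238 and 237 CPM with METTL4-si, and rose by 0.95 (SE 0.07, limma adjusted p = 0.00033). Without the 2 libraries high in luminal breast markers its difference was 0.94. With METTL4-si EPCAM stood above both normoxic libraries, by 0.33 (SE 0.07, limma adjusted p = 0.0151), under 1.3-fold. Altogether 1 member rose and 3 fell of 8 tested, beside 12.5% and 15.3% of all genes. Of all calls 44.9% were higher, and 36.8% after median-centring.

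CDH1 gave no call with METTL4-si in FADU cells. Its 2 libraries lay on either side of the controls, at 551 CPM in replicate 1 and 354 CPM in replicate 2 against 365 and 397 CPM in the control. The difference was 0.22 (95% interval -0.26 to 0.69), it was -0.10 without replicate 1, the library with 732 CPM of luminal breast markers, and it was 0.53 (limma adjusted p = 0.0015) without replicate 2. The part of those markers' source in the CDH1 level was not tested. CDH3 was at 293 and 331 CPM, under both controls, with a difference of -0.22 (limma adjusted p = 0.068). CDH2 was at 12.3 and 13.3 CPM (-0.05, 95% interval -0.33 to 0.22), CDH11 at 3.51 and 3.74 CPM (0.28, -0.23 to 0.79) and VIM at 0.279 and 0.890 CPM.

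Against normoxia, the FADU libraries labelled METTL4-si had 2 members higher and 2 lower, beside 8.13% and 13.5% of all genes. CDH1 was higher by 0.93 (SE 0.20, limma adjusted p = 0.017), or 0.61 without METTL4-si replicate 1, and CDH3 by 0.52 (SE 0.08, limma adjusted p = 0.0056). CTNNA1 was lower with a difference of -0.40 (SE 0.10, limma adjusted p = 0.025), which was -0.27 and under 1.3-fold without METTL4-si replicate 2, and CTNNB1 with -0.51 (SE 0.08, limma adjusted p = 0.0065). Without normoxia replicate 2 none of these 4 calls held (adjusted p from 0.062 to 0.144). The CDH1 call was also lost without normoxia replicate 1 (1.05, adjusted p = 0.065). The CTNNA1 call was lost without that library (adjusted p = 0.106), without either hypoxic control library (adjusted p = 0.069 each), with the 2 compared groups alone (adjusted p = 0.069) and with no trend (adjusted p = 0.051). Without normoxia replicate 1 and METTL4-si replicate 1 together the differences were 0.73 for CDH1, 0.63 for CDH3, -0.56 for CTNNA1 and -0.55 for CTNNB1. The others were not called, with differences of -0.28 for CDH2, -0.53 for CDH11, -0.23 for CTNND1 and, with no filter on low values, 0.02 for VIM.

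**Figure D2:**
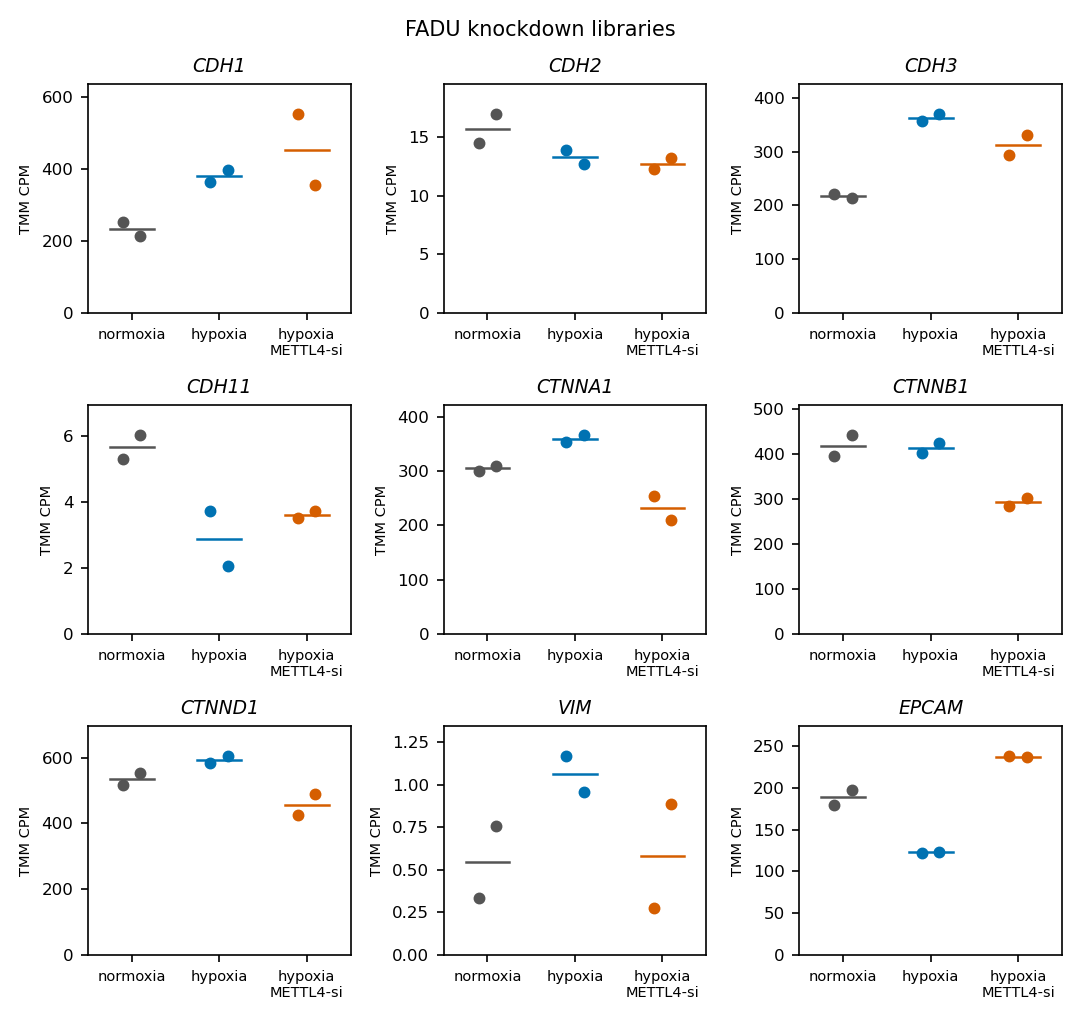
Each panel plots 1 gene in the 6 FADU knockdown libraries, in TMM-normalized CPM on a linear axis that starts at 0, with a point per library and a bar at the mean of 2. EPCAM is lowest in the hypoxic Scr-si libraries at 122 and 123 CPM, CTNNA1 and CTNNB1 are lowest with METTL4-si, and the 2 METTL4-si libraries lie apart for CDH1 at 551 and 354 CPM.

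In BFTC909 cells the same 3 comparisons could be made for 6 members, in a line whose vimentin transcripts are abundant. VIM was at 3230 and 3304 CPM in normoxia and at 5242 and 5476 CPM in hypoxia, and rose by 0.71 (SE 0.11, limma adjusted p = 0.0016). It was the 1 member that rose and none fell, beside 17.9% and 18.3% of the 14869 genes tested (49.6% of all calls higher, and 60.4% after median-centring). The VIM call held in each fit that left out a library. VIM-AS1 was at 15.0 and 13.9 CPM in normoxia and at 19.0 and 25.99 CPM in hypoxia, so its reads were few beside those of VIM. Of the 8 fibroblast markers tested, 7 also rose, and their sums went from 1270 and 1371 CPM to 4746 and 4956 CPM, whose part in the VIM level was not tested.

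CDH2 did not move with hypoxia in BFTC909 cells, at 112 and 114 CPM in normoxia and at 116 and 108 CPM in hypoxia (-0.01, 95% interval -0.25 to 0.22). CTNND1 was at 213 and 219 CPM and then at 242 and 253 CPM, a difference of 0.20 (SE 0.06, limma adjusted p = 0.039) under 1.3-fold. CTNNA1 was at 354 and 347 CPM and then at 389 and 402 CPM (0.17, limma adjusted p = 0.059). CTNNB1 was at 363 and 360 CPM and then at 360 and 363 CPM, a difference of 0.00 (95% interval -0.17 to 0.17). EPCAM was near the limit of what could be counted, at 0.895 and 1.51 CPM and then at 1.45 and 1.43 CPM.

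With METTL4-si in hypoxic BFTC909 cells VIM was at 4171 and 3469 CPM, below both hypoxic controls and above both normoxic libraries. It fell by 0.49 against the hypoxic control (SE 0.11, limma adjusted p = 0.012). This was the 1 call of 6 members tested, beside 13.2% of genes that rose and 11.7% that fell (53.1% of all calls higher, and 37.2% after median-centring). The fibroblast markers summed to 2707 and 2892 CPM with METTL4-si, with 2 of 8 called higher and 4 lower. Without replicate 2, the library high in GATA3, the fall was -0.36 and under 1.3-fold, and the call was also lost without either hypoxic control library (adjusted p of 0.074 and 0.10) and in a fit of the 2 groups alone (adjusted p = 0.051).

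CDH2 was at 98.2 and 79.7 CPM with METTL4-si, below the 4 control libraries of this line. Its difference from the hypoxic control was -0.34 (SE 0.10, limma adjusted p = 0.040), under 1.3-fold. It was -0.49 and past the threshold without METTL4-si replicate 1, -0.19 without replicate 2, the library high in GATA3, and -0.43 and past the threshold with median-centred libraries. EPCAM was at 1.69 CPM in METTL4-si replicate 1 and at 26.5 CPM in replicate 2, so its difference of 1.82 (95% interval -0.27 to 3.90) rested on the library that also held 128 CPM of GATA3: it was 0.14 without that library and 3.5 without replicate 1. The part of the luminal breast markers in the EPCAM level was not tested. CTNND1 was at 218 and 204 CPM (-0.23, limma adjusted p = 0.030), CTNNA1 at 361 and 338 CPM (-0.18) and CTNNB1 at 363 and 324 CPM (-0.08), all under 1.3-fold.

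Against normoxia, METTL4-si BFTC909 cells gave no member called by limma, while 24.4% of genes rose and 23.2% fell. At an unadjusted p under 0.05 limma also called none of the 6 at 1.3-fold, whereas edgeR on whole reads called 1, EPCAM (3.53, adjusted p = 0.026). The shares of all genes called under these other rules are not given. VIM was 0.22 higher (95% interval -0.03 to 0.47) and CDH2 was lower with a difference of -0.35 (SE 0.10, limma adjusted p = 0.021), under 1.3-fold. EPCAM was 1.98 higher in the limma fit (95% interval -0.11 to 4.07), and 0.30 higher without METTL4-si replicate 2. The catenins differed by -0.00 (CTNNA1), -0.08 (CTNNB1) and -0.03 (CTNND1).

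**Figure D3:**
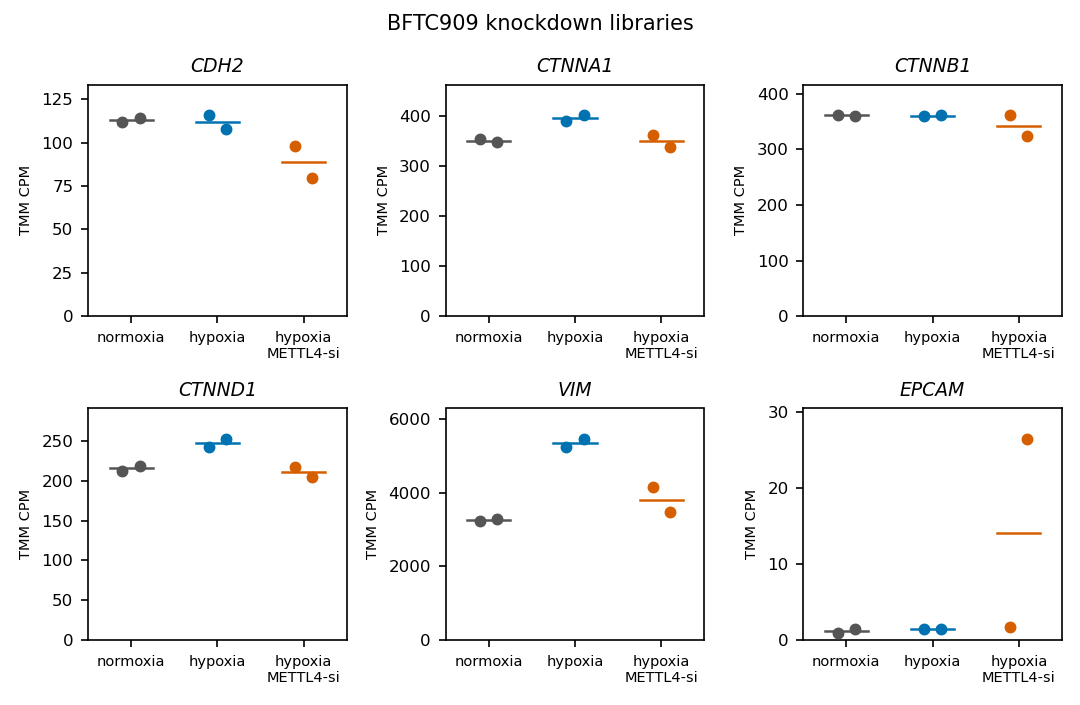
Each panel plots 1 of 6 genes in the 6 BFTC909 knockdown libraries, in TMM-normalized CPM on a linear axis that starts at 0, with a point per library and a bar at the mean of 2. VIM is highest in the 2 hypoxic Scr-si libraries, at 5242 and 5476 CPM, and EPCAM is above 2 CPM in a single METTL4-si library, at 26.5 CPM.

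**Figure D4:**
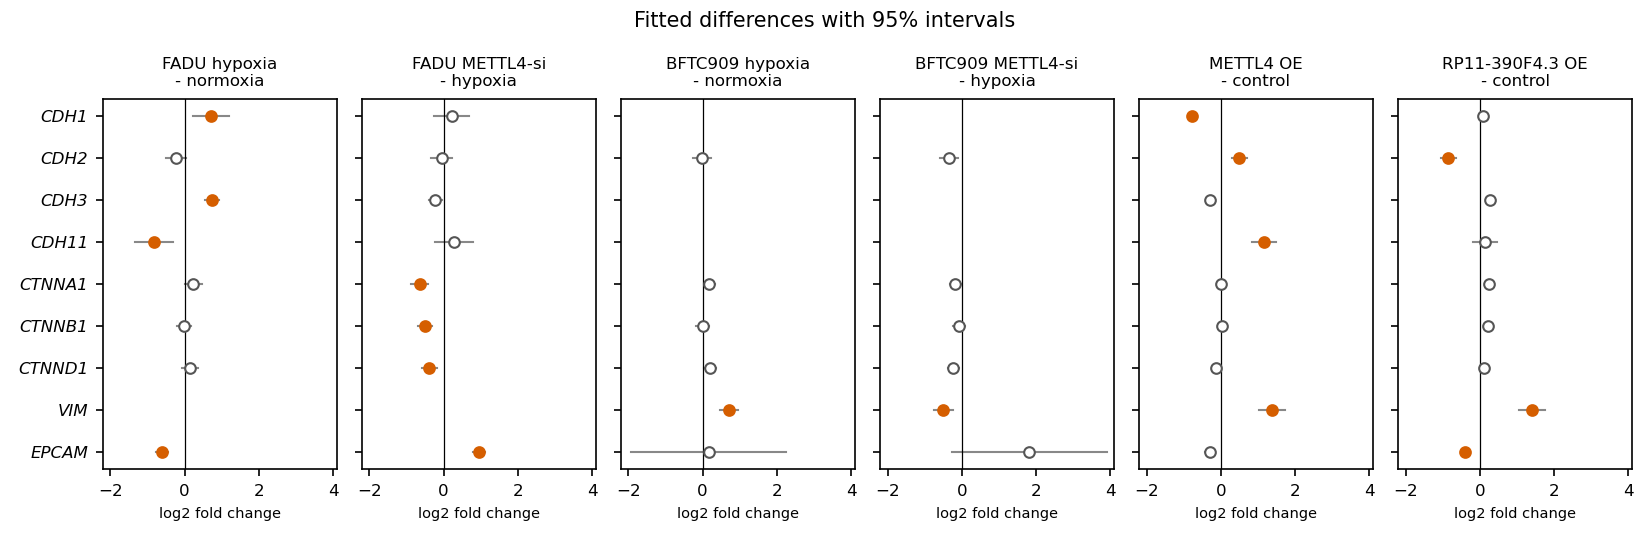
Each point is the fitted log2 fold change of 1 gene, on the log2(value + 1) scale, in 1 of 6 comparisons, with its 95% interval as a line, and filled points passed 1.3-fold and an adjusted p under 0.05. CDH1 is at 0.71 under hypoxia in FADU cells and at -0.77 with METTL4, and VIM is past the threshold in 4 panels. VIM in the FADU knockdown panels and CDH1, CDH3 and CDH11 in the BFTC909 panels are left blank.

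Over the members tested, the median log2 fold change was 0.07 under hypoxia in FADU cells, -0.14 with METTL4-si there, 0.17 under hypoxia in BFTC909 cells, -0.20 with METTL4-si there, -0.00 with METTL4 and 0.15 with RP11-390F4.3. Over all genes tested the medians lay between -0.03 and 0.02. The members rose and fell in the same comparisons, so these medians say little of the single genes.

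The METTL4 mutant clones had a single control library, so they carry no test. CDH1 was at 256 CPM in the hypoxic control and at 139.7 and 138.6 CPM in the 2 clones, log2 ratios of -0.87 and -0.88. CDH3 was at 234 CPM in the control and at 139 and 141 CPM in the clones, log2 ratios of -0.75 and -0.73. These were the 2 of 9 members lower by at least 1.3-fold in both clones, and none was higher in both, beside 11.7% and 10.3% of the 13461 genes measured.

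VIM was at 1.06 CPM in the control and at 2.35 and 1.5 CPM in the clones, and it passed 1.3-fold in clone 1 alone. CDH2 was at 9.40 CPM in the control and at 12.1 and 8.54 CPM, and CDH11 was at 1.91 CPM and at 1.46 and 2.61 CPM, so the clones lay on either side of the control for both. EPCAM was at 72.4 CPM and at 78.7 and 87.2 CPM. CTNNA1, CTNNB1 and CTNND1 were lower in both clones by log2 ratios between -0.18 and -0.32. CA9 was at 29.8 CPM in the control and at 10.4 and 15.2 CPM in the clones. METTL4 was at 12.5 CPM and at 15.9 and 10.6 CPM, which does not check an edit of a few codons. Of 16 adherens junction partners measured there, 4 were lower in both clones (JUP, AFDN, IQGAP1 and VEZT) and 1 was higher (CTNNAL1). Of 5 repressors 1 was lower (TCF4). Of all genes measured, 11.7% were lower and 10.3% higher in both clones. The partners and the repressor are named after their values were seen.

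The balance of the 2 cadherins was read as the log2 difference of CDH2 and CDH1 in each FADU library, in which a higher value means relatively more CDH2. It was -4.03 and -3.57 in normoxia, -4.62 and -4.86 in hypoxia and -5.38 and -4.64 with METTL4-si. Hypoxia and normoxia did not overlap, and hypoxia lay 0.94 lower, away from CDH2. In the overexpression table it was -3.93 and -4.01 with the control vector, -2.69 and -2.70 with METTL4 and -4.77 and -5.02 with RP11-390F4.3.

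METTL4 thus lay 1.27 above the control, and RP11-390F4.3 lay below it with a difference of -0.93. In the third set the CRISPR control was at -4.62 and the clones at -3.42 and -3.87. The exact two-sided permutation test of 2 against 2 libraries gave p = 0.333 for each of these group comparisons, the smallest it can give, and p = 0.667 for METTL4-si against hypoxia. Per kilobase CDH2 made up 0.949% to 4.55% of the summed classical cadherin level in all FADU libraries, so E- and P-cadherin transcripts stayed far above it, also with METTL4.

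Among known repressors of cadherin genes, 4 of 7 tested rose and 1 fell with METTL4 in FADU cells, beside 8% and 10.5% of all genes, with a median log2 fold change of 0.55 against 0.01 over all genes. SNAI2, which encodes Slug, went from a mean of 30.3 to 71.7 CPM (1.22), ZEB1 from 1.39 to 4.23 CPM (1.13) and TWIST2 from 2.99 to 5.47 CPM (0.69), while TCF4 fell from 7.37 to 4.09 CPM. With RP11-390F4.3, 5 of 7 rose and none fell, beside 16.5% and 12.5% of all genes, among them SNAI1, which encodes Snail, from 1.25 to 3.01 CPM (0.84), TWIST2 to 5.27 CPM (0.65) and TWIST1 from 2.94 to 5.05 CPM (0.62). Between the 2 lines SNAI2 and ZEB1 were lower with RP11-390F4.3 (-0.82 and -0.90), and SNAI1 and TCF4 were higher (0.97 and 1.29).

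Hypoxic FADU cells had SNAI2 higher, from 30.4 to 54.6 CPM (0.83), and TWIST2 and SNAI1 lower (-0.72 and -0.59). With METTL4-si SNAI2 fell from 54.6 to 21.3 CPM (-1.32), and SNAI1 and TCF4 rose (0.83 and 0.52). In BFTC909 cells SNAI1 rose with hypoxia from 5.73 to 16.8 CPM (1.42) and fell with METTL4-si to 3.80 CPM (-1.89), while SNAI2 fell with hypoxia from 124 to 78.6 CPM (-0.65). The hypoxic Scr-si libraries are shared by the 2 comparisons of each line.

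Of the other adherens junction partners, 3 of 17 rose and 3 fell with METTL4, beside 8% and 10.5% of all genes, with a median of 0.05: NECTIN4, a nectin that also binds across the junction, fell from 12.5 to 4.27 CPM (-1.36), and PLEKHA7, a p120 catenin partner, fell from 19.2 to 11.4 CPM (-0.70). The alpha-catenin relative CTNNAL1 rose from 33.5 to 62.5 CPM (0.88). With RP11-390F4.3, 6 of 17 rose and none fell, beside 16.5% and 12.5% of all genes and with a median of 0.16, led by LIMA1, an actin-binding alpha-catenin partner, from 119 to 233 CPM (0.96), and NECTIN4 rose to 23.1 CPM (0.84). NECTIN4 was 2.19 higher with RP11-390F4.3 than with METTL4, and JUP, which encodes plakoglobin, a catenin found in desmosomes too, was 0.72 higher.

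In FADU cells 4 of 18 junction partners rose with hypoxia and none fell, beside 9.73% and 9.65% of all genes. NECTIN1 rose from 296 to 499 CPM (0.75). With METTL4-si 3 rose and 4 fell, beside 12.5% and 15.3% of all genes. CTNNAL1 fell from 44.4 to 19.5 CPM (-1.147) and NECTIN1 to 294 CPM (-0.76). In BFTC909 cells none of 14 rose and 3 fell with hypoxia, beside 17.9% and 18.3% of all genes. With METTL4-si there 2 rose and 3 fell, beside 13.2% and 11.7% of all genes. AJUBA, a LIM-domain partner of alpha-catenin, fell from 101 to 49.7 CPM (-1.02).

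Of the other cadherins, 6 of 18 were tested in FADU cells. With RP11-390F4.3 4 fell and none rose, beside 12.5% and 16.5% of all genes, and CDH5 went from 6.71 to 2.86 CPM (-0.998). With METTL4 2 fell, CDH5 and CDH10, beside 10.5% of all genes. With hypoxia 3 fell, beside 9.65% of all genes: CDH5 from 7.09 to 1.153 CPM (-1.92), CDH24 and CDH13. CDH5 encodes the cadherin of endothelial cells, and at these levels it is a minor transcript in FADU.

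Of the 8 tested members of the beta-catenin destruction complex, 3 fell and none rose with METTL4-si in FADU cells, beside 15.3% and 12.5% of all genes. The 3 were the ubiquitin ligase subunit FBXW11 (-0.67) and the kinases GSK3B (-0.48) and CSNK1A1 (-0.45). With METTL4 1 rose and none fell, beside 8% and 10.5% of all genes. With RP11-390F4.3 2 rose and none fell, AXIN1 and CTNNBIP1, beside 16.5% and 12.5% of all genes. Of 11 beta-catenin targets and partners, 1 rose and 1 fell with METTL4 and 2 rose and 2 fell with RP11-390F4.3. With hypoxia in FADU cells 1 rose and 3 fell, beside 9.73% and 9.65% of all genes. DKK1, a secreted Wnt inhibitor, rose with METTL4 from 39.5 to 71.7 CPM (0.85) and with RP11-390F4.3 to 57.9 CPM (0.54).

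Of the 7 tested filament genes and vimentin partners, 2 rose and 2 fell with METTL4, beside 8% and 10.5% of all genes. The cytolinker PLEC rose from 677 to 1047 CPM (0.63) and S100A4 fell (-0.67). With RP11-390F4.3 2 rose and 1 fell, beside 16.5% and 12.5% of all genes. Fibronectin (FN1), a matrix protein often read with vimentin, rose there from 14.8 to 26.7 CPM (0.81). FN1 also rose with hypoxia in FADU cells (0.56) and in BFTC909 cells (0.87). Of 8 EPCAM partners, 2 rose and 2 fell with METTL4, beside 8% and 10.5% of all genes. CD44, a hyaluronan receptor, rose with METTL4 from 354 to 603 CPM (0.77) and with RP11-390F4.3 to 628 CPM (0.83).

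Of the 13 genes for cadherin shedding and turnover, 12 were tested with the vectors. With METTL4 1 fell and none rose, beside 10.5% and 8% of all genes: ADAM10, the main protease that sheds E-cadherin, from 237 to 180 CPM (-0.39). No gene of the list was called with RP11-390F4.3, while 16.5% of all genes rose and 12.5% fell. With hypoxia 1 rose and 1 fell in FADU cells, NUMB (0.47) and SRC (-0.48), beside 9.73% and 9.65% of all genes. In hypoxic BFTC909 cells 4 rose and 5 fell of 12, beside 17.9% and 18.3% of all genes. The kinase gene SRC fell there from 56.5 to 22.6 CPM (-1.28).

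Genes whose pattern over libraries was most like that of a member were sought among 9674 genes, by Pearson's correlation of log2 values centred on each table. For CDH1, over 12 FADU libraries, they were ST6GALNAC2 (r = 0.977), NIPAL2 (0.968) and CELSR2 (0.965). For CDH2, over 18 libraries, they were BRCA1 (0.951), PRICKLE1 (0.932) and DTL (0.931). For VIM, over 18 libraries, they were NR3C1 (0.909), FERMT2 (0.892) and FMNL2 (0.889). These are descriptions, since libraries of a group share their treatment, and some of these libraries stood apart in luminal breast markers.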

How the data were processed

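RNA was sequenced after ribosomal depletion (Kapa HyperPrep with RiboErase, NextSeq 550, paired ends) in 21 libraries. Per the methods of the study and the submitters' processing notes, the authors used Trim Galore for trimming, HISAT2 for alignment to hg19, HTSeq for counts per gene and edgeR for normalization. The deposited values are a signal per gene, TMM-normalized CPM with no log, in 4 tables. The lower values, to which the check was limited, were within 0.1 read of a whole number once divided by what 1 read is worth in their library. Versions and strand setting are not given in the sources used here. The authors' tables of comparisons (log fold changes and p-values) were not used. Of the normalized total in the table of mutant clones, 40.9% to 43.0% belonged to rows that name no gene. These rows were left out, and levels were not compared between tables. No column of per-sample values was set aside: 0 were left unmapped.

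RP11-390F4.3 was identified through the study's primers, whose product on GRCh37 overlaps the start of the gene at chr 9:6716157-6727438, where KDM4C lies on the same strand and may share reads. Gene positions are from GENCODE v44 lifted to GRCh37. Within each table, log2(value + 1) was fitted, for genes that reached 1 CPM in 2 or more libraries, with limma 3.58.1 (R 4.3.3), moderated with a trend, the 3 groups sharing 1 spread, and p-values were adjusted by Benjamini-Hochberg over all genes tested. A gene is called at 1.3-fold and an adjusted p under 0.05. Precision is limited by 2 libraries a group. Alternatives were pseudocounts of 0.1 and 5, no filter or a mean of at least 5, median-centred libraries, a fit without the third group, a fit with no trend, unadjusted p-values, a replicate block, edgeR 4.0.16 quasi-likelihood on whole reads, and each library left out. The fit was also run on simulated libraries with the same spread in all groups, which does not test groups whose replicates differ in spread. The members with values in a table are named in each of its comparisons, and of each related list at most 3 called genes a direction. For CDH1, CDH2 and VIM the 3 most alike genes are named. A gene that this rule would name is not reported here. The members, lists and tests were chosen with earlier results of these data known.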

Additional observations from a re-analysis of the deposited data

How the results depend on the processing

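Of 690 member values computed under alternatives other than leaving out a library, 669 kept their direction and side of the threshold, 8 lost a call, 4 gained one and 9 changed sign, none of them a called value. With median-centred libraries the sign changed for CTNNB1 (0.0313) under hypoxia in FADU, CDH2 (0.059) and CTNNB1 (0.0719) under hypoxia in BFTC909, CTNNA1 with METTL4 (0.00046), CDH1 with RP11-390F4.3 (-0.0027) and VIM between the 2 vectors (-0.0567). With edgeR it changed for CTNNB1 under hypoxia in FADU (0.014) and in BFTC909 (0.0071), and without normoxia replicate 1 and METTL4-si replicate 1 for CDH1 with METTL4-si in FADU (-0.10).

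The number of members called with METTL4-si in hypoxic BFTC909 cells was 1, and it was 0 with the 2 groups alone and 2 with median-centred libraries. Against normoxia it was 0, and it was 1 with the replicate block and 1 with edgeR. With 1 library left out, the count ranged from 2 to 4 under hypoxia in FADU, from 2 to 5 with METTL4-si, from 0 to 4 for METTL4-si against normoxia, from 0 to 3 with METTL4-si in BFTC909 and from 0 to 2 against normoxia there. It stayed at 4 with METTL4 overexpression and between the vectors, and was 2 to 3 with RP11-390F4.3. A lone library left in a group was assumed to vary like the others.

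Signs changed when 1 library was left out for 15 values, none of them called in the main fit. Not all were near 0: with METTL4-si in FADU the main value was 0.22 for CDH1 and 0.28 for CDH11. In FADU, CTNNB1 ranged from -0.10 to 0.0633 under hypoxia, and with METTL4-si CDH1 ranged from -0.10 to 0.53, CDH2 from -0.11 to 0.00396 and CDH11 from -0.0331 to 0.60. In BFTC909 under hypoxia CDH2 ranged from -0.06 to 0.0375, CTNNB1 from -0.00595 to 0.00474 and EPCAM from -0.0413 to 0.36. With METTL4-si there CTNNB1 ranged from -0.16 to 0.00594, and against normoxia CTNNA1 from -0.0527 to 0.0433, CTNNB1 from -0.16 to 0.00533 and CTNND1 from -0.0781 to 0.0115. With METTL4 overexpression CTNNA1 ranged from -0.0486 to 0.0431 and CTNNB1 from -0.00683 to 0.077, CDH11 with RP11-390F4.3 from -0.0172 to 0.31 and VIM between the vectors from -0.18 to 0.23.

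By their labels, replicates of different groups shared only a number. Deviations of same-numbered libraries correlated at -0.065 to 0.154, except 0.648 between FADU normoxia and METTL4-si, where replicate 1 of each was high in luminal breast markers. With the number as a replicate block the counts were 4, 4 and 4 in FADU, 1, 1 and 1 in BFTC909 and 4 with METTL4 overexpression. The RP11-390F4.3 columns are numbered, but the numbers could not be tied to single samples, so no block was fitted for them. Replicate numbers given for this group are those of the columns. VIM in the FADU knockdown libraries rested on 7 to 26 reads each.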
